A study of Mus musculus with 6 samples.

Results

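The 10 genes described here belong to the pathway by which leukaemia inhibitory factor (LIF) acts on mouse embryonic stem cells: Lifr, Il6st, Jak1, Stat3, Socs3, Socs2, Junb, Gbx2, Pim1 and Pim3. They were chosen by name for their place in the pathway, with earlier results of these data known. All 10 were found among the 23999 genes of the count table and passed the filter on low counts, which kept 14458 genes. The table holds reads of polyadenylated RNA from 6 cultures of murine embryonic stem cells, all carrying a floxed element named -5 and an exogenous, V5-tagged mouse Nanog (mNanogV5). For 6 days, 3 cultures received ethanol vehicle and 3 received tamoxifen, given in the labels as 4OHT. Since the series is titled for an enhancer of Nanog, the 2 treatments ask how these genes behave once 4OHT is given to cells with the floxed element. No group without the floxed element is in the table, so 4OHT itself and the loss of the element cannot be told apart, and the sources used here do not give a Cre driver, the number of clones or whether the medium held LIF.

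LIF binds its receptor LIFR, which pairs with the shared signal transducer gp130, encoded by Il6st. JAK kinases attached to both chains, JAK1 foremost, phosphorylate the receptor tails and the docked transcription factor STAT3, which then enters the nucleus. In mouse embryonic stem cells STAT3 is best known for sustaining self-renewal through targets such as Klf4 and Tfcp2l1, and for inducing Socs3, whose product binds the receptor complex and shuts the signal off.

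Nanog, the gene named in the title, stood at 631, 660 and 641 CPM (read counts brought to a common library size) in vehicle and at 177, 172 and 194 CPM in 4OHT cultures, so every 4OHT library was below every vehicle library. The tagged copy shares this symbol, and its reads cannot be told apart. Library totals ran from 20030423 to 55194644 counts in 5 libraries and reached only 515388 in 4OHT replicate 2, where 1 read is worth 1.91 CPM. The 10 genes had 18 to 102 reads in that library and at least 855 in each of the others. The 8 stem cell markers summed to 6057 to 6227 CPM in vehicle and 6000.0 to 6339 CPM in 4OHT libraries, and of these Sox2 and Sall4 rose, Pou5f1 fell and 5 did not pass. The 9 primitive endoderm markers, all of which rose, summed to 6.99 to 8.19 CPM in vehicle and 47.7 to 67.4 CPM in 4OHT libraries. Gata6, for a transcription factor of that lineage, averaged 0.711 CPM in vehicle and 11.3 CPM in 4OHT libraries. Gata4, Sox17 and Sox7 had no read in 4OHT replicate 2. The 10 fibroblast markers summed to 24.5 to 26.3 and 14.4 to 19.1 CPM, most of it Thy1, which fell, and Pdgfrb. Their Postn had no read in any library, and Col1a1 stayed between 1.59 and 1.96 CPM. The part of these markers in the results below was not tested, and in such bulk samples fewer cells of a type and less RNA per cell cannot be told apart.

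The upstream sequences of Socs3 and Junb, a feedback gene and an early target of the pathway, are shown because their calls had opposite directions. Each runs over the 250 bases before the annotated start, 5′ to 3′ on the coding strand, as given by RefSeq for GRCm38.p6 (chr11:117969367-117969616, minus strand, for Socs3, and chr8:84978749-84978998, minus strand, for Junb). Capitals mark matches to TTCNNNGAA, the general STAT element.
Socs3: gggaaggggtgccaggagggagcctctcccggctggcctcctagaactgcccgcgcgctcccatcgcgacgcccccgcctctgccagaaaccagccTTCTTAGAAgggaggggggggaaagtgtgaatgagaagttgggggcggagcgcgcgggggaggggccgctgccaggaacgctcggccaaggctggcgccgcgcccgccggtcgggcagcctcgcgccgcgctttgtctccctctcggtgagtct
Junb: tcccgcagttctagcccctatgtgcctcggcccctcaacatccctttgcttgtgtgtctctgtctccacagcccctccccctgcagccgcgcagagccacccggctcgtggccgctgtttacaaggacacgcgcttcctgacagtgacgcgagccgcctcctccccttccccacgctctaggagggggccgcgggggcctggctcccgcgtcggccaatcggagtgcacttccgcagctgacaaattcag
The match in Socs3, TTCTTAGAA, lies 154 to 146 bases before the start. The element reads the same on both strands, and 7.02% of the 32851 promoter windows of that table hold it. Of the 11 windows of the 9 members with an entry, that of Socs3 alone held it, and none held the tighter form TTCCNGGAA, a subset of the first, which 0.913% of all windows hold. Socs2 has no entry. These are letters in a window and do not show binding. Sites that differ from these forms were not searched, so the lack of capitals in Junb does not show that STAT3 has no site there. The rise of Socs3 was at the edge of the test (edgeR adjusted p = 0.0490) and was lost in 8 of 15 alternative analyses. Any link between the match and the response was not tested.

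Of the 10 genes, 2 were higher and 3 lower in 4OHT than in vehicle cultures, and 5 did not pass the test (edgeR's quasi-likelihood test, adjusted p under 0.05). Over all tested genes the test called 22.4% in either direction, 11.9% higher and 10.5% lower. The median log2 fold change of the 10 genes was 0.03, beside 0.00 over all tested genes, and the range was -0.69 for Junb to 0.21 for Pim1. The groups did not overlap for Stat3, Socs2, Junb and Socs3, a pattern found for 31.3% of all tested genes, 14.7% with 4OHT above and 16.5% with 4OHT below. The 3 falls held in all 15 alternative analyses. The 2 rises were smaller than the falls and were lost in 8 of them for Socs3 and in 7 for Pim1.

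**Figure D1:**
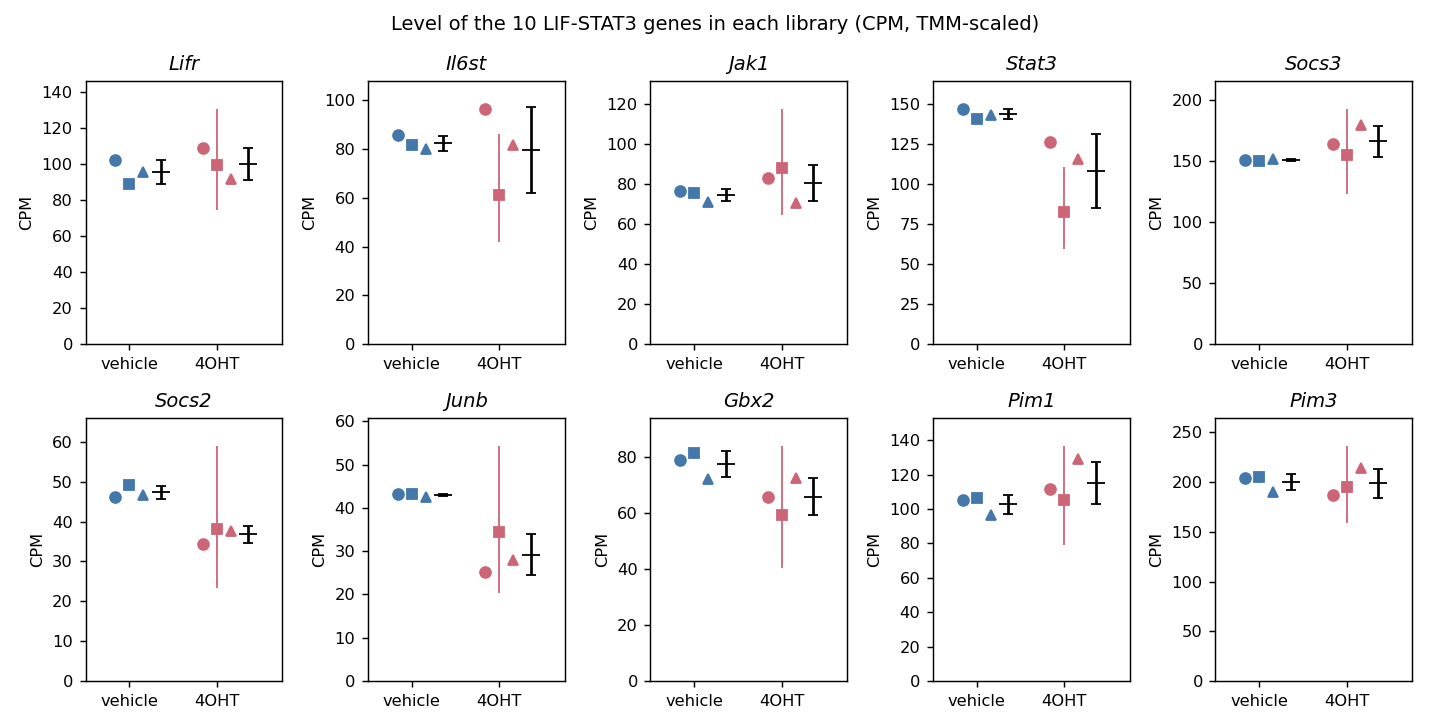
Level of each gene in the 6 libraries, in CPM from 0 on the vertical axis, with circles, squares and triangles for replicates 1, 2 and 3, black bars for the mean and SD of 3 libraries, and a thin line for the exact 95% Poisson interval of 4OHT replicate 2. Stat3, Socs2 and Junb lie lower in every 4OHT library, Socs3 higher in every one, and the intervals of the shallow 4OHT replicate 2 are wide.

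Neither receptor gene passed the test with all libraries. Lifr stood at 102, 88.8 and 95.2 CPM in vehicle and at 109, 99.3 and 91.5 CPM in 4OHT libraries. The ranges overlapped, with the highest value in 4OHT replicate 1 and the lowest in vehicle replicate 2. The log2 fold change was 0.07 (edgeR adjusted p = 0.552, SE 0.07, 95% interval -0.08 to 0.22). Il6st, for the shared signal transducer, stood at 85.7, 81.5 and 79.8 CPM in vehicle and at 96.3, 61.1 and 81.6 CPM in 4OHT libraries. The low value of 4OHT replicate 2 rests on 32 reads and has an exact 95% Poisson interval of 41.8 to 86.3 CPM, which holds all 3 vehicle values. The log2 fold change of Il6st was 0.09 (edgeR adjusted p = 0.477, SE 0.08, 95% interval -0.08 to 0.25). Both intervals leave out a change of the size seen for Junb in either direction. Without 4OHT replicate 3 both receptor genes were called higher (log2 fold changes 0.17 and 0.18, edgeR adjusted p = 0.0411 and 0.0322), and without 4OHT replicate 1 both estimates were below 0 (-0.05 and -0.04), so the sign rests on which of these libraries enters.

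Jak1, for the kinase bound to the receptor chains, had 76.5, 75.3 and 71.0 CPM in vehicle and 83.0, 87.8 and 70.6 CPM in 4OHT libraries. Replicates 1 and 2 of the 4OHT group were above all vehicle libraries and replicate 3 below all of them. The log2 fold change was 0.06 (edgeR adjusted p = 0.594, SE 0.07, 95% interval -0.09 to 0.21), and it was -0.05 without 4OHT replicate 1. Stat3, for the transcription factor of the pathway, had 146, 140 and 143 CPM in vehicle and 126, 82.1 and 115 CPM in 4OHT libraries. Every 4OHT value was below every vehicle value, and the lowest, that of replicate 2, rests on 43 reads with a Poisson interval of 59.4 to 111 CPM. Stat3 fell by 0.28 on the log2 scale, to 0.823 of its vehicle level (edgeR adjusted p = 0.00741, SE 0.07, 95% interval -0.43 to -0.13). Over the 15 alternatives its log2 fold change ran from -0.35 to -0.23, with adjusted p of at most 0.0425. Among the 1514 genes called lower, 1156 had a larger change than Stat3.

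The feedback genes went in opposite directions. Socs3 had 151, 150 and 152 CPM in vehicle and 164, 155 and 180 CPM in 4OHT libraries. The vehicle libraries were close together and all 4OHT libraries were above them, replicate 2 by the least. That value rests on 81 reads, and its Poisson interval of 123 to 192 CPM holds all 3 vehicle values. The log2 fold change was 0.17 (edgeR adjusted p = 0.0490, SE 0.06, 95% interval 0.04 to 0.30), at the edge of the test. Without 4OHT replicate 3 it was 0.11 with an adjusted p of 0.236, and without vehicle replicates 1, 2 and 3 in turn the edgeR adjusted p was 0.131, 0.221 and 0.135. Socs2, an inhibitor of the same family best known for restraining growth hormone signalling, had 46.2, 49.1 and 46.8 CPM in vehicle and 34.4, 38.2 and 37.7 CPM in 4OHT libraries. All 4OHT values were below all vehicle values, and replicate 1, the deepest 4OHT library, was the lowest. The value of 4OHT replicate 2 rests on 20 reads, with a Poisson interval of 23.3 to 59.0 CPM that takes in the vehicle level. Socs2 fell by 0.39 on the log2 scale, to 0.762 of its vehicle level (edgeR adjusted p = 0.000273, SE 0.07, 95% interval -0.54 to -0.25). The alternatives gave -0.45 to -0.32.

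A ratio of 2 genes in the same library does not depend on how libraries are scaled. The ratio of Socs3 to Socs2 reads was 3.27, 3.06 and 3.25 in vehicle and 4.76, 4.05 and 4.76 in 4OHT libraries. The ratio was higher in all 3 4OHT libraries, and the interval of the shallow replicate 2, 2.46 to 6.98 (exact binomial, 95%), covers both groups. Such ratios were computed for 4 pairs of genes, chosen after the values were seen. The exact two-sided permutation test gave p = 0.1 for Socs3 to Socs2, which is the smallest that 3 against 3 libraries allow, and 0.133 after adjustment over the 4 pairs. For Il6st to Lifr, the pair of receptor chains, the ratio was 0.840, 0.917 and 0.838 in vehicle and 0.885, 0.615 and 0.892 in 4OHT libraries, with overlap (exact permutation p = 0.8, adjusted 0.8).

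Among the target genes Junb had the largest change of the 10. Junb encodes a subunit of the AP-1 transcription factor and is an early response gene of cytokine signals. It had 43.2, 43.2 and 42.6 CPM in vehicle and 25.2, 34.4 and 27.9 CPM in 4OHT libraries. All 4OHT libraries were lower, replicate 2 the least so, with 18 reads and a Poisson interval of 20.4 to 54.3 CPM that takes in the vehicle level. Junb fell by 0.69 on the log2 scale, to 0.621 of its vehicle level (edgeR adjusted p = 6.34e-07, SE 0.07, 95% interval -0.84 to -0.53), and by 0.61 to 0.75 over the alternatives. Of the 1514 genes called lower, 453 had a larger change, and the median size of their changes was 0.46. An opposite-strand gene, Prdx2, overlaps 7.52% of the exon bases of Junb, and the sources used here do not say whether counting used strand.

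Gbx2, a homeobox gene that STAT3 is known to induce in these cells, had 78.8, 81.4 and 72.2 CPM in vehicle and 65.8, 59.2 and 72.4 CPM in 4OHT libraries. Replicates 1 and 2 of the 4OHT group were below all vehicle libraries, while replicate 3 was level with vehicle replicate 3, the lowest of them. The log2 fold change of -0.18 did not pass (edgeR adjusted p = 0.0718, SE 0.07, 95% interval -0.32 to -0.03). When the replicate number was a block it was -0.15 with an adjusted p of 0.0368, which became -0.14 and 0.138 when both replicates 2 were also left out. Without the block and without 4OHT replicate 3 it was -0.24 with an adjusted p of 0.00395. The opposite-strand gene D130058E05Rik overlaps 43.5% of the exon bases of Gbx2, so its value is uncertain.

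Pim1 and Pim3 encode serine/threonine kinases of one family that are induced by STAT3. Pim1 had 105, 107 and 96.4 CPM in vehicle and 111, 105 and 129 CPM in 4OHT libraries. The groups overlapped, because 4OHT replicate 2 lay within the vehicle range, and replicate 3 was the highest. The log2 fold change of Pim1 was 0.21 (edgeR adjusted p = 0.0340, SE 0.07, 95% interval 0.07 to 0.36). It was 0.11 without 4OHT replicate 3 (edgeR adjusted p = 0.229), and without vehicle replicates 1, 2 and 3 in turn the adjusted p was 0.0567, 0.0700 and 0.183. The opposite-strand gene Gm26885 overlaps 14.5% of its exon bases. Pim3 had 205, 205 and 190 CPM in vehicle and 187, 195 and 215 CPM in 4OHT libraries, with the highest and the lowest value both in the 4OHT group. Its log2 fold change was -0.0017 (95% interval -0.14 to 0.13, edgeR adjusted p = 0.994). The ratio of Pim1 to Pim3 reads was 0.513, 0.520 and 0.506 in vehicle and 0.597, 0.539 and 0.600 in 4OHT libraries, higher in all 3 4OHT libraries (exact permutation p = 0.1, adjusted 0.133). The ratio of Pim1 to Junb was 2.43, 2.47 and 2.26 in vehicle and 4.42, 3.06 and 4.62 in 4OHT libraries, again without overlap and with the same p-values. In 4OHT replicate 2 the exact binomial intervals, 0.381 to 0.756 for Pim1 to Pim3 and 1.77 to 5.53 for Pim1 to Junb, cover the vehicle ratios. Pim1 was called higher and Junb lower, as were Socs3 and Socs2, so neither of these ratios adds separate support.

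**Figure D2:**
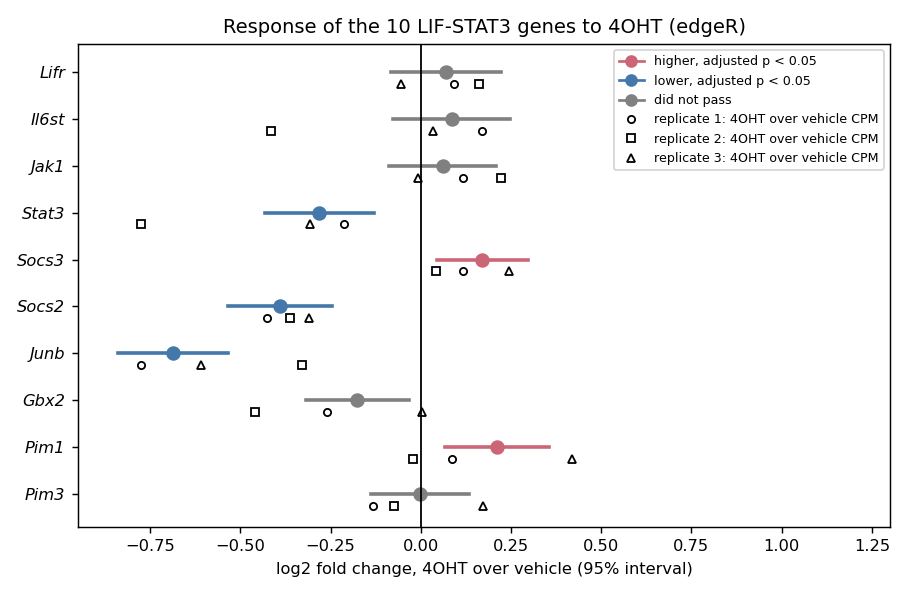
Log2 fold change of each gene, 4OHT over vehicle, with its 95% interval from edgeR as a coloured bar, and below it the log2 ratio of CPM in same-numbered libraries as open symbols. The bars of Stat3, Socs2, Junb and Gbx2 lie wholly below 0 and those of Socs3 and Pim1 wholly above it, while the single ratios of Lifr, Il6st, Jak1, Gbx2, Pim1 and Pim3 fall on both sides.

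The members also differed between replicates of one group, and in a way that went with gene length. From 4OHT replicate 1 to replicate 3 the CPM of Lifr, Il6st, Jak1 and Stat3 differed by log2 ratios of -0.25, -0.24, -0.23 and -0.13. Those of Pim1, Pim3, Junb, Gbx2 and Socs3 differed by 0.21, 0.20, 0.15, 0.14 and 0.14. The first 4 genes have 7.23 to 11.1 kb of annotated exons in GENCODE vM21 and the other 5 have 2.18 to 3.36 kb. Socs2 went with the short genes (0.13). Its 9.53 kb, like the other lengths, joins the exons of all isoforms, and the isoforms used in these cultures were not determined. Over 6897 tested genes with a mean of at least 20 CPM in the 5 deeper libraries and a known length, split by length into 4 bins, the median of the same ratio was 0.12 in the bin of the shortest genes and -0.06 in that of the longest. Across these genes the Spearman correlation of length and ratio was -0.446 as a description of these 2 libraries, which share no reads but were scaled together. In vehicle replicates 3 over 1 it was -0.307, and the ratios of Lifr, Il6st and Jak1 were again below 0 (-0.10, -0.10 and -0.11). Those of Pim1, Pim3 and Gbx2 were also below 0 there (-0.12, -0.10 and -0.13), so these short genes did not follow genes of their length in vehicle. For 4OHT over vehicle the median log2 fold change ran from -0.04 for the shortest genes to 0.04 for the longest. The part of length in the values of the members was not tested.

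**Figure D3:**
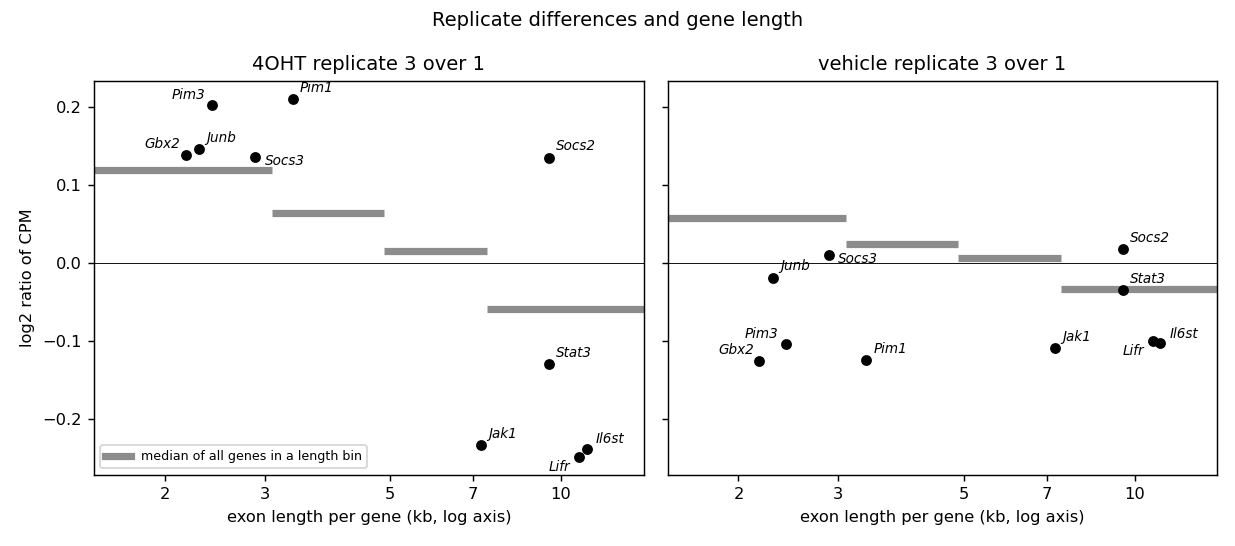
Log2 ratio of CPM between replicates 3 and 1 of the 4OHT group (left) and of the vehicle group (right) against exon length in kb on a log axis, with a point for each of the 10 genes and grey bars for the median of all genes in each of 4 length bins, drawn within the axis range. In the 4OHT group Lifr, Il6st and Jak1 lie near -0.24 and the short genes above 0.13, while the medians of all genes step down from 0.12 to -0.06.

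Levels of different genes were compared per kb of annotated exons, a length that joins all isoforms and so understates genes with long rare isoforms. In vehicle cultures Pim3 was the highest at 82.4 ± 3.42 CPM per kb (SD, n = 3), followed by Socs3 at 52.2 ± 0.282, Gbx2 at 35.6 ± 2.17, Pim1 at 30.5 ± 1.64 and Junb at 18.7 ± 0.141. The signalling genes were lower, with Stat3 at 15.0 ± 0.316, Jak1 at 10.3 ± 0.406, Lifr at 8.85 ± 0.610 and Il6st at 7.42 ± 0.273 CPM per kb, and Socs2 was the lowest at 4.97 ± 0.165. The place of Socs2 rests on its 9.53 kb of joined exons, and levels by the length of single isoforms were not computed. No 2 neighbours in this order overlapped across the vehicle libraries. In 4OHT cultures Pim3 and Socs3 again led at 81.9 ± 5.96 and 57.4 ± 4.39 CPM per kb and Socs2 was last at 3.86 ± 0.219. Pim1 at 34.2 ± 3.68 stood above Gbx2 at 30.2 ± 3.05, with overlap. Junb at 12.7 ± 2.04, Stat3 at 11.3 ± 2.42, Jak1 at 11.1 ± 1.23 and Lifr at 9.27 ± 0.800 each overlapped the next. Il6st at 7.18 ± 1.59 overlapped Lifr but not Socs2. The order from Junb to Il6st in 4OHT libraries was therefore not resolved.

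Of 62 other genes of the pathway, 56 passed the filter on low counts. Of these, 8 were higher, 11 lower and 37 did not pass the test (median log2 fold change 0.01). For these counts and those of the 4 lists below, the share over all tested genes was 22.4% called, 11.9% higher and 10.5% lower. Il6, Il11, Osm, Clcf1, Osmr and Ptprc did not pass the filter. Among the 12 cytokines and receptors 7 were tested and 1, Il6ra, was lower (median 0.03). Il6ra, the receptor chain specific to IL-6, had 4.57, 4.13 and 4.80 CPM in vehicle and 1.70, 3.82 and 1.34 CPM in 4OHT libraries, where replicate 2 rests on 2 reads. It fell by 1.52 on the log2 scale (edgeR adjusted p = 9.86e-07, SE 0.17). Lif itself was low, at 4.88, 4.18 and 4.53 CPM in vehicle and 4.88, 5.73 and 4.41 CPM in 4OHT libraries (edgeR adjusted p = 0.909, log2 fold change 0.03).

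Of the 14 kinases, STATs and adaptors 1 was higher and 5 were lower (median -0.17). Stat6, the factor of interleukin-4 signals, fell from 50.1, 50.1 and 51.6 CPM to 34.9, 36.3 and 37.9 CPM (edgeR adjusted p = 2e-05, log2 fold change -0.48, SE 0.07). Shc1, an adaptor that links receptors to RAS, fell from 94.6, 92.7 and 91.7 CPM to 71.8, 76.4 and 74.2 CPM (edgeR adjusted p = 0.000218, log2 fold change -0.35). In both genes the 4OHT libraries were close together and all below vehicle. Their values in 4OHT replicate 2 rest on 19 reads for Stat6 and 40 for Shc1. The Poisson intervals, 21.8 to 56.7 and 54.6 to 104 CPM, take in the vehicle levels. Jak3 had a log2 fold change of -0.30 (edgeR adjusted p = 0.00414, DESeq2 adjusted p = 0.127). Stat4 had one of 0.27 (edgeR adjusted p = 0.0289), but its adjusted p was 0.108, 0.0637 and 0.114 without vehicle replicates 1, 2 and 3 and 0.243 without 4OHT replicate 1, and another gene, Gm28177, overlaps 26.7% of its exon bases. Jak2, a kinase that gp130 receptors also use, stood at 7.82, 8.61 and 8.15 CPM in vehicle and at 7.24, 0 and 7.44 CPM in 4OHT libraries, where 3 reads in replicate 2 would be worth 5.73 CPM (edgeR adjusted p = 0.378, log2 fold change -0.17).

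Of the 13 tested negative regulators 1 was higher and 2 were lower (median -0.01). Socs5, of the SOCS family, fell from 12.9, 14.1 and 15.0 CPM to 10.8, 9.55 and 9.79 CPM (edgeR adjusted p = 0.0029, log2 fold change -0.43). Ptpn6, which encodes the phosphatase SHP-1, had a log2 fold change of -0.33 (edgeR adjusted p = 0.00922, or 0.0615 in limma-voom after quantile normalization). Pias3, named as an inhibitor of activated STAT3, rose from 14.3, 14.8 and 14.3 CPM to 17.8, 22.9 and 18.0 CPM (edgeR adjusted p = 0.00899, log2 fold change 0.32, or 0.0508 without vehicle replicate 1). DESeq2 with all libraries did not call these 3 genes (adjusted p = 0.224, 0.212 and 0.376). In 4OHT replicate 2 the values of Socs5 and Pias3 rest on 5 and 12 reads. Their Poisson intervals, 3.10 to 22.3 and 11.8 to 40.0 CPM, take in the vehicle levels.

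Of 22 STAT3 targets 6 were higher, 3 lower and 13 did not pass (median 0.06). Klf4 and Tfcp2l1, the targets best known for sustaining the naive state, did not pass in the main edgeR fit. Klf4 stood at 244, 242 and 233 CPM in vehicle and at 229, 244 and 255 CPM in 4OHT libraries (edgeR adjusted p = 0.894, log2 fold change 0.02, 95% interval -0.11 to 0.14). Tfcp2l1 stood at 940, 914 and 941 CPM against 1062, 947 and 1060.4 CPM, with all 4OHT libraries above vehicle (edgeR adjusted p = 0.0777, log2 fold change 0.15, SE 0.06). Its edgeR adjusted p was 0.00598 when the replicate number was a block and 0.0308 without 4OHT replicate 2, so Tfcp2l1 stood at the edge of the test. Rnd3 rose from 12.1, 12.0 and 12.3 CPM to 25.9, 28.6 and 25.1 CPM (edgeR adjusted p = 4.84e-09, log2 fold change 1.08, SE 0.08). Pramel7 rose from 0.132, 0.448 and 0.419 CPM to 2.25, 1.91 and 2.48 CPM, of which the 4OHT replicate 2 value is 1 read (edgeR adjusted p = 2.07e-07, log2 fold change 3.06, SE 0.30). Ccnd1, for cyclin D1, fell from 244, 240 and 246 CPM to 196, 191 and 196 CPM (edgeR adjusted p = 0.000308, log2 fold change -0.32). The gene LTO1 on the opposite strand overlaps 23.4% of its exon bases. Myc rose from 54.0, 51.3 and 51.0 CPM to 63.0, 61.1 and 66.3 CPM (edgeR adjusted p = 0.00125, log2 fold change 0.30, DESeq2 adjusted p = 0.0597).

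**Figure D4:**
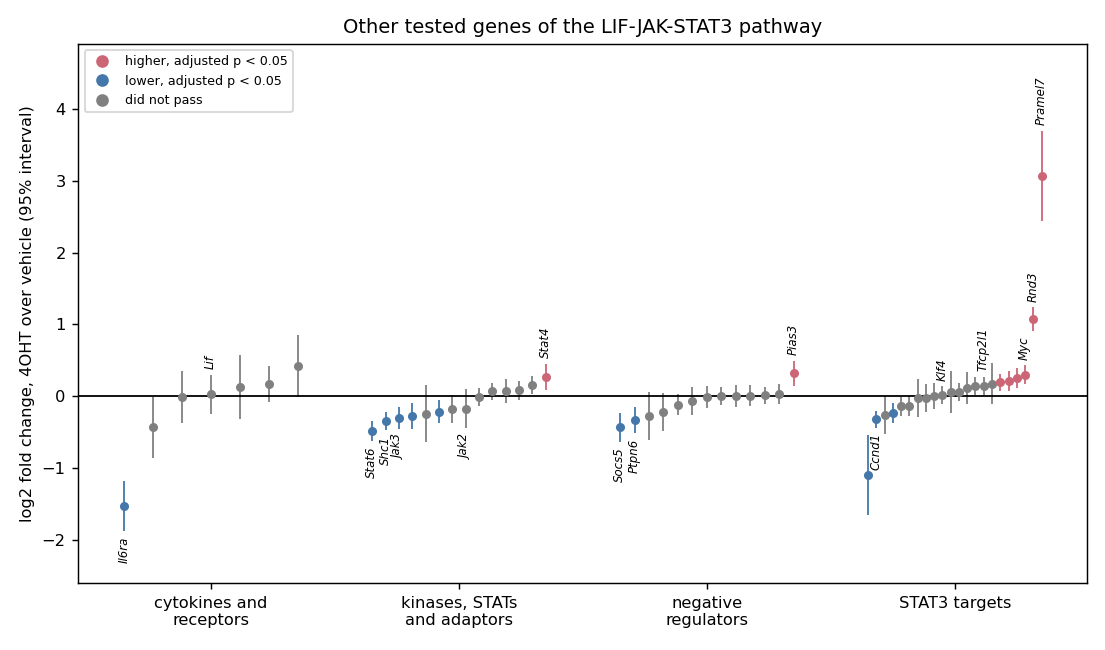
Log2 fold change of the 56 other tested pathway genes, 4OHT over vehicle, with 95% intervals from edgeR, in 4 groups and sorted within each, red for higher, blue for lower and grey for genes that did not pass. Il6ra at -1.52 and Pramel7 at 3.06 mark the ends of the range, and Klf4 and Lif lie near 0.

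**Figure D5:**
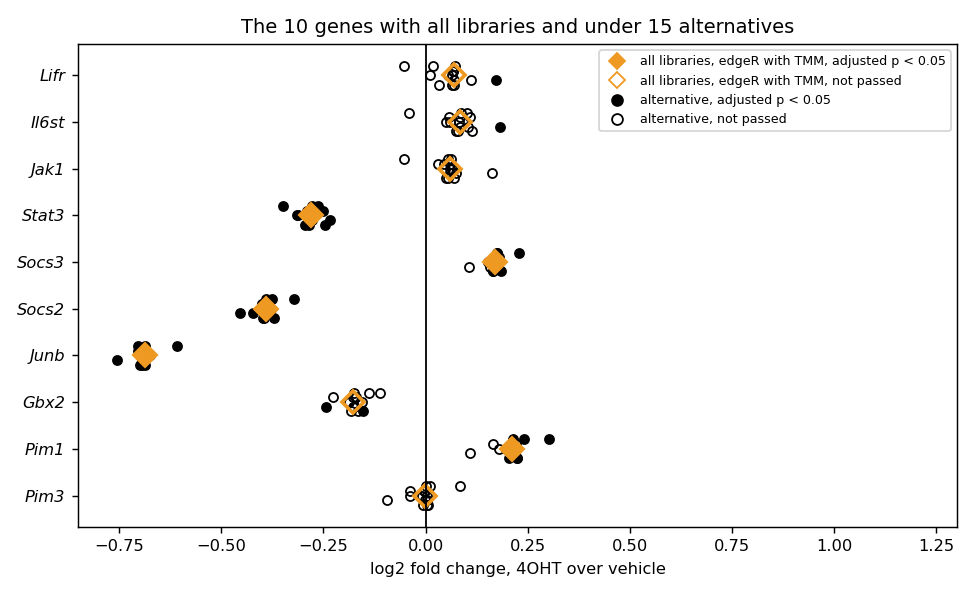
Log2 fold change of the 10 genes with all libraries in edgeR (diamonds) and under 15 alternative analyses (circles), filled where the adjusted p is under 0.05. All circles of Stat3, Socs2 and Junb are filled and below 0, those of Socs3 and Pim1 are above 0 and partly open, and Pim3 scatters around 0.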

How the data were processed

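Polyadenylated RNA of 6 cultures was made into libraries with the NEBNext Ultra kit and sequenced, per the labels' protocols. The authors deposited whole-number read counts per gene symbol. The submitters' processing notes name STAR, DESeq and mm9; the counting tool, annotation and strand use are not given in these sources. Groups and replicate numbers came from the sample titles. No label says that the cultures were grown separately, so p-values measure the spread between these samples, which may be technical. The members and lists were chosen with earlier results of these data known.

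The test of the counts was that of edgeR 4.0.16 (R 4.3.3): filterByExpr (minimum count 10), TMM factors (0.979 to 1.017), a quasi-likelihood model with treatment as its only term over all 6 samples, Benjamini-Hochberg adjustment over 14458 genes and a threshold of 0.05. Fold changes use a prior count of 0.125, and SE and 95% intervals come from the same model, which weighs libraries by depth. CPM are TMM-scaled and rest on 515388 to 55194644 counts per library; Poisson and binomial intervals cover counting error only. The alternatives used limma 3.58.1 and DESeq2 1.42.0. The procedure was tested on a simulated data set, where the share of false calls was above the threshold.

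Across 3632 genes, the deviations of same-numbered libraries from their group means had correlations of 0.57 (replicate 1), 0.147 (replicate 2) and 0.388 (replicate 3). No label says what the numbers mark, and these correlations do not settle whether they pair the samples. Vehicle replicate 2 and 4OHT replicate 3 correlated more with each other (0.448) than with their same-numbered libraries. The replicate block was therefore used only as an alternative. The fit without the block is the main one.

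Exon lengths and overlaps came from GENCODE vM21 on GRCm38, a build other than the authors' mm9. No other gene matched at least 50% of a named pathway gene's longest transcript at 95% identity (blastn 2.17.0). Genes named were the 10 members, up to 4 called genes with the smallest adjusted p in each of 4 pathway lists, Klf4, Tfcp2l1, Lif and Jak2 in any case, and markers by list, with Gata6 and Col1a1 named; Nanog, Pou5f1, Sox2, Sall4, Thy1, Pdgfrb, Postn, Gata4, Sox17, Sox7 and untested or overlapping genes were named after their values were seen.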

Additional observations from a re-analysis of the deposited data

How the results depend on the processing

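The calls of Stat3, Socs2 and Junb kept their direction and passed under all 15 alternatives: RLE and upper quartile factors, DESeq2, 2 other filters, the replicate block, each library left out and 3 alternatives added after seeing the data. Of the 10 members 5 were called with all libraries, 3 (all lower) with DESeq2, 3 with DESeq2 without 4OHT replicate 2, 3 with quantile normalization in limma-voom, and 3 to 6 with 1 library left out. With the replicate number as a block 6 were called; the added call was that of Gbx2, and no other call of a member changed; with the block and without both replicates 2 that call was lost. The block raised the calls over all tested genes from 3233 to 4073 and over the other pathway genes from 19 to 24. The 3 calls without vehicle replicate 1, 2 or 3 leave out Socs3 and Pim1. Over all tested genes 3233 were called, 944 in DESeq2, 2088 in limma-voom after quantile normalization and 2368 to 3950 with 1 library left out. Of the other pathway genes 19 were called, 6 with DESeq2 and 15 with DESeq2 without 4OHT replicate 2. The cause of these differences between tools was not tested.

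Estimates that changed sign were those of genes that did not pass. With 1 library left out the log2 fold change ran from -0.054 to 0.17 for Lifr, -0.040 to 0.18 for Il6st, -0.052 to 0.16 for Jak1 and -0.094 to 0.084 for Pim3, and -0.052 to 0.082 for Klf4 and -0.052 to 0.090 for Lif among the other pathway genes. Klf4 was at -0.032 in limma-voom after quantile normalization, and Lif at -0.0047 with the replicate block and -0.019 with the block and without both replicates 2. Tfcp2l1 was called higher in 7 of the 15 alternatives. For Pim3 it was also 0.0022 with a mean count of at least 50, 0.0058 with the replicate block and 0.012 with the block and without both replicates 2. Depth limits what 4OHT replicate 2 can show of any single gene.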
